A study of Mus musculus with 6 samples.

Results

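The calponin and transgelin genes encode actin-binding proteins that share a calponin homology domain and short calponin repeats. Cnn1, Cnn2 and Cnn3 encode calponins, and Tagln, Tagln2 and Tagln3 encode the smaller transgelins. These 6 genes were chosen as the paralogs of a family, by their symbols, out of 27179 rows of the deposited expression table. Poly(A) RNA had been sequenced from cerebral cortex of C57BL/6N mouse embryos at E18.5. The CAP1-KO group held 3 libraries (FCRE3, FCRE4 and FCRE5) of genotype Cap1flx/flx,Nestin-CRE, and the Control group held 3 libraries (FF1, FF2 and FF4) of genotype Cap1 flx/flx. Both groups therefore carried the floxed Cap1 alleles. The Cre recombinase was driven by the Nestin promoter, which is known to act in neural progenitors and their descendants. No group carried Cre without the floxed alleles, so the transgene's own effects and the loss of CAP1 cannot be told apart. CAP1 binds actin and takes part in filament turnover, and the series asks how its loss alters genes that depend on MRTF and SRF.

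Members of this family bind along actin filaments and, in smooth muscle, tune contraction. Cnn1 and Tagln (also called SM22) are textbook markers of differentiated smooth muscle, where SRF binds DNA elements known as CArG boxes and is switched on by MRTF proteins once these are released from unpolymerised actin. Cnn2 is expressed in many non-muscle cells and Tagln2 in many tissues including blood cells. Cnn3, the acidic calponin, and Tagln3, first described as the neuronal protein NP25, are the members known from brain. Levels are given in CPM, read counts scaled to library size by the authors, and fold changes come from limma on log2(CPM + 1), which understates the change of low genes. A gene was tested if its mean over the 6 libraries reached 1 CPM, and it was called at a Benjamini-Hochberg adjusted p under 0.05 over all 13885 genes tested.

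The row that carries the symbol Cnn1 did not match its own gene number. Its number, 625409, belongs in RefSeq to the pseudogene Gm6581. The number of Cnn1, 12797, stands on a row with the symbol Acp5, and the Ensembl identifier on that row is also that of Cnn1. The mismatch was not limited to this gene. Among 10783 rows with a mean log2 CPM under -0.34, 58.3% carried a symbol that did not match the gene number, against 5 of 14036 rows at or above that level. Below, Cnn1 means the row with the gene number 12797, and the row with the symbol Cnn1 is given beside it. The other 5 members had matching symbols and numbers.

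Recovered depth was 33509504 to 36302598 reads in CAP1-KO libraries and 32443864 to 35229159 reads in Control libraries, and a level of 1 CPM corresponded to 31.2 to 37.3 reads. Which exons were deleted is not stated in the labels, so the Cap1 level checks the labels but is no measure of intact transcript. Cap1 measured 86.7, 85.9 and 82.9 CPM in CAP1-KO libraries and 194, 193 and 166 CPM in Control libraries (log2 fold change -1.10, SE 0.07, limma adjusted p = 0.000283). All 3 CAP1-KO libraries lay below all Control libraries. Its paralog Cap2 measured 24.4 ± 0.76 CPM in CAP1-KO and 25.9 ± 0.47 CPM in Control (SD, n = 3 each) and did not pass the test (limma adjusted p = 0.39). Embryo sex was not balanced: Xist measured 2398 to 2653 CPM in the CAP1-KO libraries, and 0.577 CPM in FF1, 2296 CPM in FF2 and 2.05 CPM in FF4.

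In CAP1-KO cortex Cnn2 and Tagln rose more than 10-fold, and the other 3 tested members did not pass the test. Of the 6 members 5 were tested, 2 rose and 0 fell (limma). Tagln averaged 0.895 CPM in Control, so it reached the 1 CPM needed for the test only through its CAP1-KO level. With no filter on low values it was also called (limma adjusted p = 0.00384). Over all genes 0.562% were called higher and 0.403% lower. In Cnn2, Tagln and the untested Cnn1 every CAP1-KO library lay above every Control library, and in no member did the groups separate the other way. Of the 5 tested members 2 thus separated upward and 0 downward. Over all genes tested 11.1% separated upward, 14.6% downward and 25.6% in either direction. With limma-voom the counts of members called higher and lower were 2 and 0. At an unadjusted p under 0.05 (limma) they were also 2 and 0. That 0 lay at the threshold: Tagln3 had an unadjusted p of 0.05001 by limma and 0.0385 by the authors' F test. Over all 13885 genes tested, 1075 were higher and 2119 lower at an unadjusted p under 0.05 (limma). The median log2 fold change was 0.14 over the 5 tested members and -0.01 over all genes tested.

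**Figure D1:**
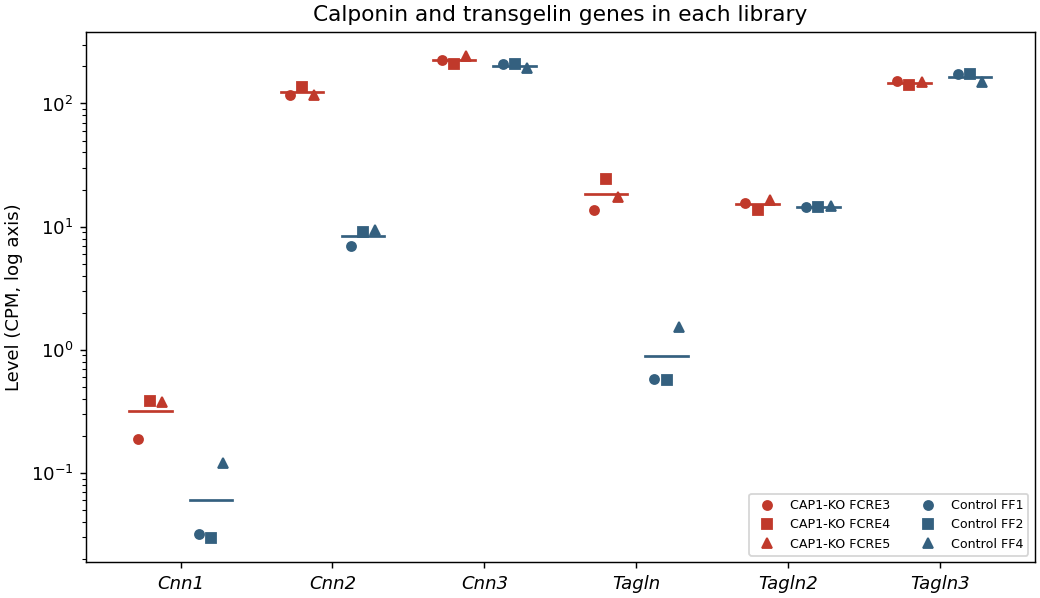
Level of each member in CPM (log axis) in every library, with CAP1-KO libraries in red at the left of each gene and Control libraries in blue at the right; short lines are group means of 3 libraries. Cnn2 and Tagln are separated by more than 10-fold between the group means, Cnn3, Tagln2 and Tagln3 overlap between groups, and Cnn1 lies under 1 CPM throughout.

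Among the calponins, Cnn2 carried the change. Cnn2 (gene number 12798, GRCm38 chr10:79988584-79996062, plus strand) measured 117, 136 and 117 CPM in FCRE3, FCRE4 and FCRE5, against 6.96, 8.99 and 9.31 CPM in FF1, FF2 and FF4. The lowest CAP1-KO library stood far above the highest Control library, and the spread within each group was small beside that gap. The means were 123.5 ± 11.2 CPM in CAP1-KO and 8.42 ± 1.27 CPM in Control (SD, n = 3 each), a ratio of 14.7. The log2 fold change was 3.73 (SE 0.11, 95% interval 3.47 to 3.99, limma adjusted p = 1.78e-05). In FF2, the only Control library whose Xist level was near that of the CAP1-KO libraries, Cnn2 was at 8.99 CPM and Tagln at 0.566 CPM. The part of embryo sex in these values was not tested. The p-value of Cnn2 ranked 1 of 13885 genes tested and its fold change ranked 4. The longest annotated transcript of Cnn2 has 2460 bases in 7 exons.

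The abundant brain calponin, Cnn3, showed no such change. Cnn3 (gene number 71994, GRCm38 chr3:121426497-121458207, plus strand) measured 226, 207 and 241 CPM in FCRE3, FCRE4 and FCRE5, against 207, 209 and 193 CPM in FF1, FF2 and FF4. The groups overlapped, with FCRE4 at the level of FF1. The log2 fold change was 0.14 (SE 0.07, 95% interval -0.01 to 0.30, limma adjusted p = 0.238), so an increase above 0.30 lay outside the interval.

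Cnn1, the smooth muscle calponin, was close to the detection limit. It had 7, 14 and 13 reads in FCRE3, FCRE4 and FCRE5, against 1, 1 and 4 reads in FF1, FF2 and FF4 (GRCm38 chr9:22099216-22109630, plus strand). Every CAP1-KO library had more reads than every Control library. Summed over libraries this was 34 reads in CAP1-KO and 6 reads in Control, a ratio of 5.15 after depth, with a 95% exact interval of 2.14 to 15.0 that covers counting error only. At 0.318 ± 0.113 CPM in CAP1-KO and 0.061 ± 0.052 CPM in Control (SD, n = 3 each), Cnn1 lay under the level needed for the test. With no filter on low values it did not pass (limma adjusted p = 0.13), nor with limma-voom and no filter (adjusted p = 0.114). In the authors' deposited table its log2 fold change is 2.30, with FDR 0.121. The row with the symbol Cnn1 had 28 reads in CAP1-KO and 28 in Control, and the groups overlapped.

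Among the transgelins, Tagln carried the change. Tagln (gene number 21345, GRCm38 chr9:45929619-45936058, minus strand) measured 13.8, 24.1 and 17.3 CPM in FCRE3, FCRE4 and FCRE5, against 0.577, 0.566 and 1.54 CPM in FF1, FF2 and FF4. FCRE4 was the highest CAP1-KO library, and FF4, with 51 reads against 18 and 19 in FF1 and FF2, was the highest Control library. The means were 18.4 ± 5.28 CPM in CAP1-KO and 0.895 ± 0.56 CPM in Control (SD, n = 3 each), a ratio of 20.6. The log2 fold change was 3.36 (SE 0.25, 95% interval 2.79 to 3.93, limma adjusted p = 0.000889), rank 5 of 13885 by size. The fold change of Tagln moved with the offset: with a pseudocount of 0.1 CPM it was 4.32 (limma adjusted p = 0.00205). An antisense gene, Gm48529, overlaps Tagln over 3627 bases and was not analysed here, and Pcsk7, a proprotein convertase gene on the opposite strand, overlaps it by 108 bases. Pcsk7 measured 38.4 to 40.6 CPM in CAP1-KO and 41.1 to 42.2 CPM in Control. Libraries were strand-specific per the labels' protocols, but the setting of the read counter is not given in the sources used here.

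The other transgelins did not pass the test. Tagln2 (gene number 21346, GRCm38 chr1:172500047-172507380, plus strand) measured 15.7, 13.6 and 16.3 CPM in FCRE3, FCRE4 and FCRE5, against 14.5, 14.5 and 14.7 CPM in FF1, FF2 and FF4. The Control libraries lay inside the range of the CAP1-KO libraries. The log2 fold change was 0.05 (SE 0.08, 95% interval -0.13 to 0.24, limma adjusted p = 0.719).

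Tagln3, the neuronal transgelin, was numerically lower. Tagln3 (gene number 56370, GRCm38 chr16:45711230-45724608, minus strand) measured 153, 142 and 149 CPM in FCRE3, FCRE4 and FCRE5, against 173, 173 and 149.6 CPM in FF1, FF2 and FF4. FF4 lay among the CAP1-KO libraries, so the groups overlapped. The log2 fold change was -0.16 (SE 0.07, 95% interval -0.31 to 1.18e-05, limma adjusted p = 0.217). Without FF4 it was -0.23 (limma adjusted p = 0.00642), where Tagln3 was called lower. Leaving out FF4 also brought 1299 genes called higher and 2623 lower over the whole table, so that call was made at a different background. Over a list of 9 neuron markers the summed level was 8476 to 8541 CPM in CAP1-KO and 8641 to 9427 CPM in Control, none was at 0 in every library, and 0 of 9 were called (limma and limma-voom, with 0 higher and 3 lower at an unadjusted p under 0.05). The list's most abundant genes were Tubb3, a neuronal tubulin, at 1790 ± 16.2 CPM in CAP1-KO and 2158 ± 188 CPM in Control, and Dcx, doublecortin, at 1987 ± 97.2 CPM in CAP1-KO and 2002 ± 150 CPM in Control (SD, n = 3 each). The part of these markers in the Tagln3 value was not tested.

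**Figure D2:**
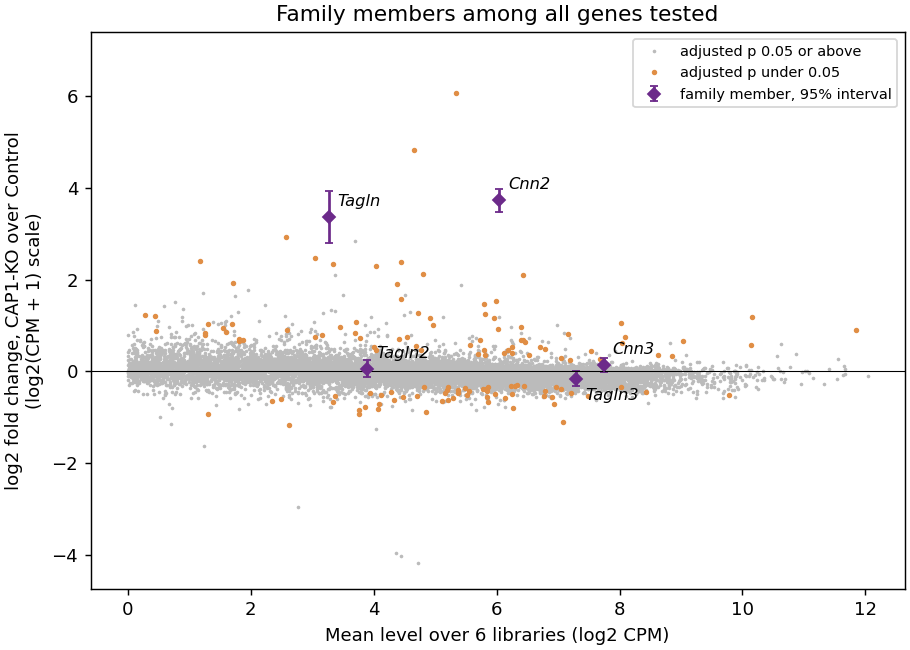
Mean level (log2 CPM over 6 libraries, horizontal) against log2 fold change of CAP1-KO over Control on the log2(CPM + 1) scale (vertical) for the 13885 genes tested, called genes in orange. The 5 tested members are purple diamonds with 95% intervals: Cnn2 (3.73) and Tagln (3.36) rank 4 and 5 of all genes tested by fold change, and Cnn3, Tagln2 and Tagln3 lie within 0.2 of 0.

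**Figure D3:**
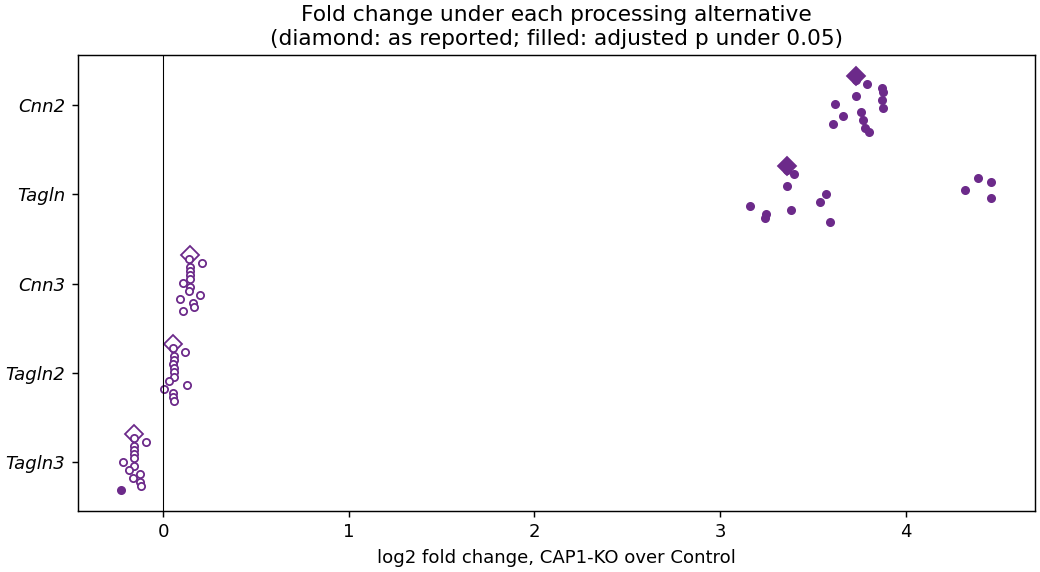
Log2 fold change of CAP1-KO over Control (horizontal) for each tested member as reported (diamond) and under 14 processing alternatives (circles), filled where the adjusted p was under 0.05. Cnn2 and Tagln are filled throughout, the higher cluster of Tagln holds the settings with a smaller offset, and the only filled circle of Tagln3 is the fit without FF4.

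Set on a common scale per length, the family kept its main members and gained Cnn2. Per kb of the longest annotated transcript, Tagln3 measured 119 ± 4.59 CPM per kb in CAP1-KO and 133 ± 10.8 CPM per kb in Control (SD, n = 3 each). Cnn3 was next in both groups, at 101.5 ± 7.68 CPM per kb in CAP1-KO and 91.7 ± 3.86 CPM per kb in Control. Tagln3 lay above Cnn3 in every library. Cnn2 followed at 50.2 ± 4.55 CPM per kb in CAP1-KO, whereas in Control it measured 3.42 ± 0.52 CPM per kb and stood below Tagln2.

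Tagln reached the level of Tagln2 in the knockout. Tagln measured 11.5 ± 3.31 CPM per kb in CAP1-KO and 0.561 ± 0.351 CPM per kb in Control, and Tagln2 measured 9.58 ± 0.90 CPM per kb in CAP1-KO and 9.18 ± 0.07 CPM per kb in Control. In CAP1-KO these neighbours did not differ beyond their spread, with Tagln lower than Tagln2 in FCRE3 and higher in FCRE4 and FCRE5. Cnn1 was last in every library, at 0.134 ± 0.047 CPM per kb in CAP1-KO and 0.026 ± 0.022 CPM per kb in Control.

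The make-up of both branches of the family differed accordingly. Cnn2 made up 31.9%, 37.2% and 30.3% of the 3 calponins per length in FCRE3, FCRE4 and FCRE5, against 2.93%, 3.73% and 4.15% in FF1, FF2 and FF4. Tagln made up 6.08%, 10.98% and 7.69% of the 3 transgelins in FCRE3, FCRE4 and FCRE5, against 0.243%, 0.238% and 0.738% in FF1, FF2 and FF4. The sum of the 6 members was 292 ± 5.28 CPM per kb in CAP1-KO and 238 ± 13.9 CPM per kb in Control (SD, n = 3 each). Of the difference of 54.1 CPM per kb, Cnn2 gave 46.8, Tagln 10.98 and Cnn3 9.79, while Tagln3 gave -13.95.

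**Figure D4:**
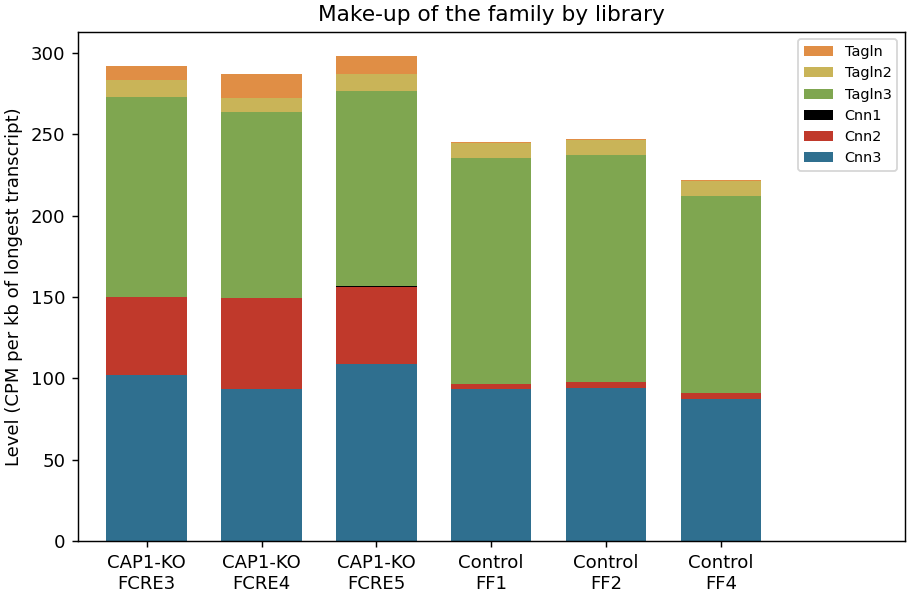
Stacked levels of the members in CPM per kb of the longest annotated transcript (vertical) in each library, CAP1-KO libraries at the left and Control libraries at the right. The red Cnn2 segment is 47.4 to 55.4 CPM per kb in CAP1-KO and 2.83 to 3.78 CPM per kb in Control; Cnn1 is too low to be seen.

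Sequence shared between members was short. Over all annotated transcripts the longest run of identical bases shared by 2 members was 23 bases, between Cnn1 and Cnn3. Cnn2 shared at most 22 bases with any other member and Tagln at most 15. Exchange of reads among members or with pseudogenes was not tested, since the read counter is not given in the sources used here.

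Because Cnn2 changed most clearly, and its window was the only one with a CArG box, the bases before its start are shown beside those of the 3 other members with enough sequence (RefSeq, GRCm38.p6). Of the 6 members 5 matched the RefSeq promoter table, all but Tagln. Each line below gives 100 bases read along the gene's own strand up to the base before the outermost start in RefSeq or GENCODE, and capitals mark a CArG box.
Cnn2 (chr10:79988484-79988583, plus strand): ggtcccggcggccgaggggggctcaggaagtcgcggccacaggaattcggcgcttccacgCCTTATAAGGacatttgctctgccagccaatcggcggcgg
Cnn3 (chr3:121426397-121426496, plus strand): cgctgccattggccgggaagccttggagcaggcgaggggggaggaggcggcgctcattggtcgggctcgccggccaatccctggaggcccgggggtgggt
Cnn1 (chr9:22099116-22099215, plus strand): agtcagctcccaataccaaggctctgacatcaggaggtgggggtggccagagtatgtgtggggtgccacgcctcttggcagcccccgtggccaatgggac
Tagln3 (chr16:45724609-45724708, minus strand): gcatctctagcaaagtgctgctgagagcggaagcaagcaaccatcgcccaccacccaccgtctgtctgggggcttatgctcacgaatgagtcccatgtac

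The box of Cnn2 spans positions -56 to -47 before the RefSeq start (chr10:79988544-79988553). The search covered 250 bases before each RefSeq start on both strands, and found no CArG box in the windows of Cnn1, Cnn3, Tagln2 or Tagln3. Of 27025 genes with such a window 378 held a CArG box, or 1.40%. Only an exact match to CC, a run of A or T bases and GG was counted, as in CCTTATAAGG, so boxes with a mismatch are left out. Among the smooth muscle genes listed below 3 of 13 windows held one (Actc1, Acta1 and Myl9), and among the other cytoskeletal targets 4 of 12 (Fhl2, Actg1, Vcl and Fhl1). Myl9, Fhl2, Actg1 and Vcl were called higher, and Actc1, Acta1 and Fhl1 were not. Acta2, Tpm2 and Flna were called higher and had no exact match in the window. A letter match describes the sequence and was not tested for SRF binding here. The TATAAA motif, searched on both strands, was in none of the 5 members' windows, and 13.0% of all windows held it. The window of Cnn2 had a GC content of 68.4%, and that of Cnn3 78.8%, the highest of the 5, against a median of 52.0% over all windows.

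Part of the smooth muscle contractile set also rose. Of 16 listed MRTF-SRF smooth muscle and contractile genes 13 were tested, 8 rose and 0 fell (limma), and the rest were not called. The log2 fold change was positive in 12 of the 13, with a median of 0.69. At an unadjusted p under 0.05 (limma) and by limma-voom 0 were lower. Over all genes tested 0.562% were called higher and 0.403% lower (limma). Acta2, smooth muscle actin, measured 35.7, 63.2 and 50.1 CPM in FCRE3, FCRE4 and FCRE5, against 0.641, 0.328 and 1.42 CPM in FF1, FF2 and FF4. As for Tagln, FCRE3 was the lowest and FCRE4 the highest CAP1-KO library, and FF4 the highest Control library. Actg2, the enteric smooth muscle actin, measured 4.49 ± 0.48 CPM in CAP1-KO and 0.03 ± 0.03 CPM in Control, where it had at most 2 reads in a library. Myl9, a regulatory myosin light chain, measured 37.2 ± 5.2 CPM in CAP1-KO and 6.35 ± 0.97 CPM in Control. Tpm2, a tropomyosin, measured 17.6 ± 1.9 CPM in CAP1-KO and 2.68 ± 0.14 CPM in Control (SD, n = 3 each). The called genes Acta2, Actg2 and Myh11 averaged 0.796, 0.03 and 0.784 CPM in Control. They reached the level needed for the test only through CAP1-KO.

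Srf itself rose to 104.5 ± 6.72 CPM in CAP1-KO, against 64.5 ± 4.67 CPM in Control (log2 fold change 0.69, limma adjusted p = 0.00515). Of 6 listed genes for SRF and its cofactors 4 were found by symbol and 3 were tested, so the list was covered only in part. Srf was the only one of the 3 that was called (0 fell, with 1 lower at an unadjusted p under 0.05 and 0 by limma-voom). Of 17 other listed cytoskeletal targets 15 were found by symbol and tested. Of these 7 rose and 0 fell (limma, with 1 lower at an unadjusted p under 0.05 and 0 by limma-voom), with a median log2 fold change of 0.44. A positive log2 fold change was found in 13 of the 15. Over all genes tested 0.562% were called higher (limma). The log2 fold changes were 2.12 for Tgfb1i1, a focal adhesion adaptor, 1.58 for Fhl2, a LIM-only protein, 1.48 for Vcl, vinculin, and 1.19 for Flna, filamin A. These 4 fold changes lay below those of Cnn2 and Tagln. These lists were drawn up with earlier results of the same libraries known and are not independent evidence of a direction.

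Genes for other proteins with a single calponin homology domain were not called. Of 28 tested genes of that list 0 rose and 0 fell (limma and limma-voom), with a median log2 fold change of -0.07. At an unadjusted p under 0.05 (limma) 2 were higher and 10 lower, against 1075 higher and 2119 lower of all 13885 genes tested. The most abundant were Mapre2 and Mapre1, which bind microtubule ends. Mapre2 measured 408.5 ± 8.89 CPM in CAP1-KO and 454 ± 22.4 CPM in Control, and Mapre1 measured 374 ± 8.84 CPM in CAP1-KO and 349 ± 9.05 CPM in Control (SD, n = 3 each).

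The profiles nearest to those of Cnn2 and Tagln were each other's. Likeness was measured over the 6 libraries as the root mean square difference of log2(CPM + 1) after the Control mean was taken off, so it reads size and group difference together. This scale compresses low genes such as Tagln, and likeness was not measured with another offset. Cnn2 and Tagln differed by 0.36 on this log2 scale. Asb2, a ubiquitin ligase subunit that acts on filamins, came next for both, at 0.59 from Cnn2 and 0.37 from Tagln. The third for Cnn2 was Acta2 (0.83), and for Tagln Pcp4l1 (0.67).

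Since Cnn1 and Tagln also mark smooth muscle cells, other markers of pericytes and vascular smooth muscle, and markers of other cell types, were set beside them. In whole tissue, more cells of a type and more RNA per cell cannot be told apart. Acta2 and Myh11, which also mark vascular smooth muscle, are counted in the contractile list above, where both rose (log2 fold changes 4.83 and 1.92, limma adjusted p = 0.000148 and 0.00127). The mural list of 10 other genes of pericytes and vascular smooth muscle held neither these nor the family, and summed to 162, 167 and 186 CPM in FCRE3, FCRE4 and FCRE5, against 175, 170.1 and 183 CPM in FF1, FF2 and FF4. These sums overlapped between groups, 0 of 10 genes were called (limma and limma-voom, with 1 higher and 1 lower at an unadjusted p under 0.05), none was at 0 in every library, and the median log2 fold change was -0.02. Rgs5, a pericyte gene, measured 34.4 ± 2.32 CPM in CAP1-KO and 33.3 ± 2.75 CPM in Control, and Notch3, the mural Notch receptor, 35.2 ± 1.95 CPM in CAP1-KO and 38.3 ± 1.4 CPM in Control (SD, n = 3 each). With Acta2 and Myh11 left out, the mural sum is no measure of smooth muscle cells apart from pericytes. The part of mural cells in the family's values was not tested.

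Meningeal fibroblast markers moved with 2 of the 3 CAP1-KO libraries. The 11 genes summed to 70.0, 139 and 143 CPM in FCRE3, FCRE4 and FCRE5, against 69.6, 71.2 and 73.6 CPM in FF1, FF2 and FF4, and none was at 0 in every library. Of 8 tested 0 were called (limma and limma-voom, with 5 higher and 0 lower at an unadjusted p under 0.05), with a median log2 fold change of 0.93. In 3 of the 8 every CAP1-KO library, FCRE3 included, lay above every Control library, against 11.1% of all genes tested. Col3a1, a fibrillar collagen, was lowest in FCRE3 among the CAP1-KO libraries, at 6.62 CPM, with 21.3 CPM in FCRE5 and 4.74 ± 0.26 CPM in Control (SD, n = 3). In FCRE3, whose meningeal sum lay within the Control range, Cnn2 stood at 117 CPM and Tagln at 13.8 CPM, both above every Control library. Igf2, a growth factor gene on the list, measured 42.7, 70.5 and 70.7 CPM in FCRE3, FCRE4 and FCRE5, against 39.8 to 45.4 CPM in Control. It gave 42.7 of the 70.0 CPM of the FCRE3 sum, so that sum mostly reads Igf2. Cnn1 and Tagln were lowest in FCRE3 among the CAP1-KO libraries. The part of meningeal cells in the family's values was not tested.

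**Figure D5:**
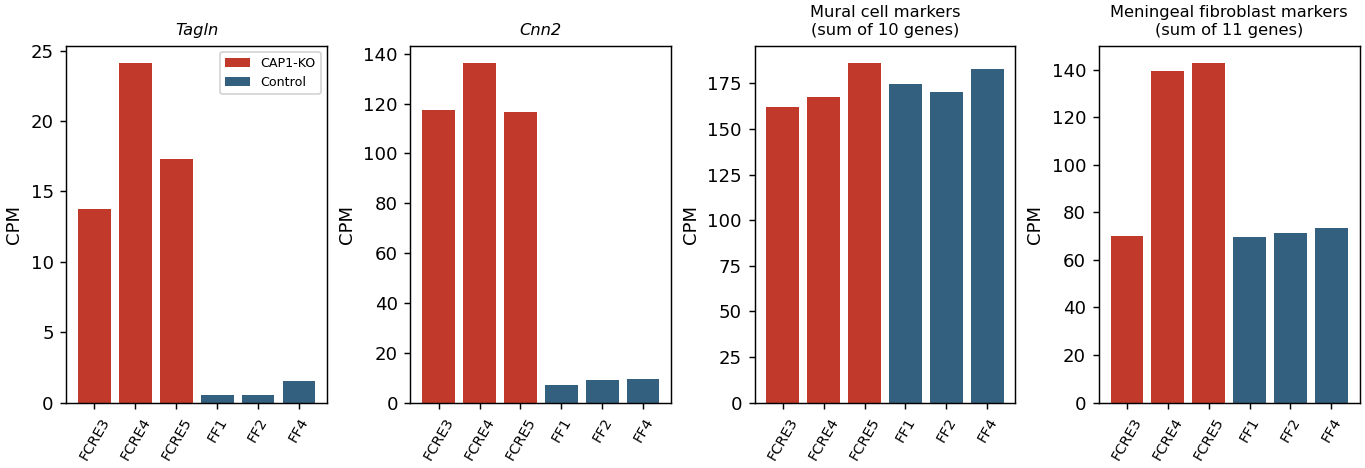
CPM of Tagln, Cnn2, the summed mural cell markers (10 genes) and the summed meningeal fibroblast markers (11 genes) in each library, CAP1-KO in red at the left and Control in blue at the right of each panel. Tagln and Cnn2 are high in all 3 CAP1-KO libraries, the mural sum overlaps between groups, and the meningeal sum of FCRE3 (70.0 CPM) lies within the Control range. Igf2 gives 42.7 CPM of that FCRE3 sum.

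Of 4 further marker sums, 3 did not overlap between the groups, nor did the neuron sum given above. Among single genes, 25.6% of all tested did not overlap. Choroid plexus markers summed to 52.6 to 113 CPM in CAP1-KO and 0.685 to 4.62 CPM in Control over 6 genes, of which 3 were tested and Ttr, transthyretin, rose (log2 fold change 6.08, limma adjusted p = 0.000103). At an unadjusted p under 0.05, 3 of the tested genes were higher and 0 lower (limma). Ttr averaged 0.152 CPM in Control, so it reached the level needed for the test only through CAP1-KO. Microglia markers summed to 47.2 to 61.1 CPM in CAP1-KO and 30.9 to 41.3 CPM in Control over 7 genes, of which 0 were called (limma and limma-voom, with 5 higher and 0 lower at an unadjusted p under 0.05). Csf1r, the receptor for colony stimulating factor, measured 18.7 ± 1.8 CPM in CAP1-KO and 12.4 ± 2.04 CPM in Control, and Cx3cr1, the fractalkine receptor, 11.4 ± 2.02 CPM in CAP1-KO and 8.06 ± 0.73 CPM in Control (SD, n = 3 each). Endothelial markers summed to 117 to 129 CPM in CAP1-KO and 147 to 167 CPM in Control over 10 genes, of which Flt1 and Kdr, receptors for VEGF, fell (log2 fold changes -0.77 and -0.40, limma). Of 9 tested endothelial genes, 0 were higher and 5 lower at an unadjusted p under 0.05 (limma). Of all 13885 genes tested, 1075 were higher and 2119 lower at that level. Radial glia markers overlapped, at 1255 to 1303 CPM in CAP1-KO and 1163 to 1282 CPM in Control over 8 genes, and 0 were called or had an unadjusted p under 0.05 (limma and limma-voom). The most abundant of them were Fabp7, a fatty acid binding protein, at 555 ± 19.6 CPM in CAP1-KO and 532 ± 47.4 CPM in Control, and Vim, vimentin, at 248 ± 23.6 CPM in CAP1-KO and 215 ± 26.4 CPM in Control. No gene of these lists was at 0 in every library, and their part in the family's values was not tested.

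In the authors' deposited table the same members were called. It gives a log2 fold change of 3.87 for Cnn2 (FDR 1.35e-06) and 4.35 for Tagln (FDR 0.0192). It gives 0.15 for Cnn3 (FDR 0.378), 0.06 for Tagln2 (FDR 0.977) and -0.16 for Tagln3 (FDR 0.326). Over its 27179 genes that table calls 0.401% higher and 0.412% lower at an FDR under 0.05.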

How the data were processed

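The authors deposited log2 normalized counts for 6 libraries of cerebral cortex, per the file headers. Per the file headers the authors also deposited a log2 fold change, a mean log2 CPM, an F score, a p-value and an FDR for each gene. The submitters' processing notes name STAR, edgeR, GRCm38 and mm10 without versions. Neither the read counter nor its annotation is given in the sources used here. Column names show the genotype, which set the group, and carry numbers other than the labels' replicate numbers.

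All libraries shared an offset of 0.0584 CPM. With it removed, 100% of values were whole multiples of 1 read within 0.1 read. Floors of 3 reads and the exact interval of the Cnn1 read ratio cover counting error only. The intervals of the log2 fold changes come from limma and rest on the spread between libraries. No replicate pair agreed within sampling noise (mean chi-square per gene 5.56 to 36.5). The highest values were those of FF4 with FF1 (27.8) and with FF2 (36.5). FF1 with FF2 gave 8.76, and the CAP1-KO pairs gave 5.56 to 10.9. Nothing but the replicate wording says that the libraries are separate embryos, so p-values measure the spread between these samples.

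The planned test was run on log2(CPM + 1) with limma 3.58.1 (R 4.3.3), its intensity trend and no covariate. It covered the 13885 genes averaging 1 CPM or more, with Benjamini-Hochberg adjustment over all of them. With 3 against 3 an exact permutation p cannot go below 0.1, so calls rest on limma's moderated variance. The fit was tested on simulated data. Genes were named by gene number from RefSeq GRCm38.p6 (25275 of 27179 matched), with positions and transcript lengths from GENCODE on GRCm38. Members and lists were chosen with earlier results of these data known. Named genes are the members, Cap1, Cap2, up to 4 called genes per list (the 2 most abundant where none was called) and the 3 nearest profiles, and other genes were chosen after their values were seen. The alternatives were other size factors, total reads, the deposited values, limma-voom, no filter, a pseudocount of 0.1 CPM, the Xist level as a covariate and each library left out. Limma-voom with no filter was chosen after seeing the data. Figures were drawn with matplotlib 3.10.9.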

Additional observations from a re-analysis of the deposited data

How the results depend on the processing

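Cnn2 and Tagln kept their calls in all 14 alternatives, and Cnn3 and Tagln2 stayed uncalled with the same sign in all of them. With one library left out, log2 fold changes ran from 3.61 to 3.80 for Cnn2, 3.16 to 3.59 for Tagln, 0.09 to 0.20 for Cnn3, 0.004 to 0.13 for Tagln2, -0.23 to -0.12 for Tagln3 and 0.27 to 0.38 for Cnn1. Tagln3 was called without FF4, so the count of members called lower ran from 0 to 1. Cnn1, whose value of 0.31 is compressed by the pseudocount, had log2 fold changes of 1.38 with a pseudocount of 0.1 CPM, 1.69 with the deposited log2 values and 2.24 with limma-voom and no filter. In that last fit the row with the symbol Cnn1 had -0.14, against -0.03 as reported. That row ran from -0.06 to 0.03 with one library left out. Over all genes 78 were called higher and 56 lower, with 23 and 3 under the Xist covariate and 20 lower with no filter. Leaving out one library gave 33 to 1299 higher and 3 to 2623 lower: 1299 and 2623 without FF4, 78 and 175 without FCRE4, 62 and 7 without FCRE3, 49 and 11 without FF2, 36 and 6 without FF1, and 33 and 3 without FCRE5. The cause was not tested. At 31.2 to 37.3 reads per CPM, depth limits Cnn1, and the size of the Tagln fold change, which rests on 18, 19 and 51 Control reads and reached 4.46 with limma-voom. No paired analysis was possible because the library columns carry numbers that are not the replicate numbers of the labels.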

Other observations

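The symbols of weakly expressed rows were displaced along the chromosomes. Of 6293 rows whose symbol did not match the gene number, 5470 had an Ensembl identifier in GENCODE, and its name was that of the gene number in 5225 of them and that of the symbol in 4. Of 6025 mismatched rows whose symbol is in RefSeq, 91.8% carried the symbol of a gene within 10 positions on the same chromosome. Of 118 rows with the number of a protein-coding gene and the symbol of a microRNA, 76.3% had a read in some library. Of 123 rows with the number of a microRNA and the symbol of a protein-coding gene, 46.3% did. The gene number of Acp5 stood on a row with the symbol Zfp872, with 2 to 5 reads in CAP1-KO libraries and 1 to 4 reads in Control libraries.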
